A study of Mus musculus with 9 samples.

Results

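Gas5, Snhg1, Snhg3, Snhg5, Snhg6, Snhg8, Snhg12, Snhg15 and Snhg20 are noncoding host genes of small nucleolar RNAs (snoRNAs). They were taken by their symbols, each of which matched 1 row, so the set is 9 of the 30411 genes with a level in the deposited table. All 9 passed the filter on low counts and were tested with 18092 genes in all. The RNA came from HEI-OC1, an immortalised line of mouse cells that was derived from the organ of Corti, where the inner ear senses sound. There were 3 libraries in each of 3 groups. The pretreated H2O2 group was incubated with a selenium-carrying nanoreactor and then given hydrogen peroxide (H2O2), an oxidant. The H2O2 group was given hydrogen peroxide alone. The control group was left untreated. Sample titles call the nanoreactor SCGS, sample descriptions write HCS@Se and the series text has HSC@Se, all taken here as 1 agent. The sources used here give no dose and no exposure time, and no group had the nanoreactor without H2O2. All groups are 1 cell line. Nothing says that the replicates of a group came from separate cultures, so p-values measure the spread between these libraries, which may be technical.

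A snoRNA host gene carries snoRNAs in its introns. They are released from the introns after splicing and guide the chemical modification or the cutting of ribosomal RNA. The spliced exons of noncoding hosts hold only short reading frames, so ribosomes that enter them stop early and the RNA is removed by nonsense-mediated decay, a pathway that depends on translation. Many hosts start with a run of pyrimidines, as ribosomal protein mRNAs do, which links their translation to growth signals through mTORC1. Gas5 is the best known of them. It was found in mouse cells as a transcript that accumulates on growth arrest, and it is also known to bind the glucocorticoid receptor as a decoy. In these polyadenylated libraries, the values below are levels of host transcripts and not of mature snoRNAs. Spliced and intron-retaining host transcripts were not told apart.

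Libraries held 55395418 to 67215208 deposited counts. Counts from mitochondrial genes made up 0.898 ± 0.0172% in pretreated H2O2, 1.01 ± 0.00314% in H2O2 and 2.66 ± 0.0690% in control libraries (SD, n = 3 each). Genes with a count numbered 24106 ± 54.7 in pretreated H2O2, 20690 ± 212 in H2O2 and 20387 ± 325 in control libraries. The part of these differences in the results on the hosts was not tested. Of the defining hair cell genes, Atoh1, Slc26a5 and Tmc1 had no value in the table. The hair cell markers, 6 of 9 of them in the table, summed to 19.5 to 21.3 CPM in pretreated H2O2, 16.9 to 18.1 CPM in H2O2 and 24.1 to 24.8 CPM in control libraries, nearly all of it from Myo6. CPM (counts per 1000000) use library sizes scaled by edgeR. Fibroblast and mesenchyme markers such as Col1a1 and Vim summed to 7793 to 7901 CPM in pretreated H2O2, 7988 to 8066 CPM in H2O2 and 9150 to 9210 CPM in control libraries. Markers of mesenchyme thus stood far above those of hair cells. They did not all move as their sum did. In H2O2 against control, 5 of 7 tested fell and 1 rose, and Vim had 4000 CPM against 2932 CPM. In pretreated H2O2 against control, 5 fell and 2 rose. In bulk libraries, fewer cells of a type and less RNA per cell cannot be told apart.

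The hosts lie on 6 chromosomes in mouse GRCm38 coordinates of the deposited table. Gas5 is at chromosome 1, 161034422 to 161038539, and Snhg6 at chromosome 1, 9941959 to 9944118. Snhg3 is at chromosome 4, 132348014 to 132353686, and Snhg12 at chromosome 4, 132308623 to 132311024. Snhg15 is at chromosome 11, 6525591 to 6528779, and Snhg20 at chromosome 11, 117076008 to 117078955. Snhg1 is at chromosome 19, 8723475 to 8726443, Snhg8 at chromosome 3, 123507552 to 123508404, and Snhg5 at chromosome 9, 88495268 to 88523562. All are annotated as noncoding genes with their snoRNAs inside the gene.

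Levels of different genes were compared in the authors' FPKM, which divide by transcript length. Snhg1 (ENSMUSG00000108414), which carries the U22 snoRNA and 7 others, was the highest host in every group. It had 99.6 ± 2.42 FPKM in pretreated H2O2, 82.2 ± 1.57 FPKM in H2O2 and 51.5 ± 2.29 FPKM in control libraries. Gas5 (ENSMUSG00000053332) was next in every group, with 33.5 ± 0.525 FPKM in pretreated H2O2, 44.9 ± 1.21 FPKM in H2O2 and 25.6 ± 0.476 FPKM in control libraries. Snhg20 was the lowest, with 4.27 ± 0.460 FPKM in pretreated H2O2, 3.78 ± 0.353 FPKM in H2O2 and 2.26 ± 0.238 FPKM in control libraries. Mean FPKM over all libraries placed the hosts between the 72.2 and the 98.0 percentile of the 30411 genes.

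The order below Gas5 differed between groups. In control libraries it ran Snhg8 at 10.3, Snhg15 at 7.18, Snhg6 at 6.71, Snhg3 at 5.63, Snhg5 at 5.25, Snhg12 at 4.73 and Snhg20 at 2.26 FPKM, and from Snhg15 to Snhg12 each gene's range overlapped that of the next. With H2O2 alone, Snhg8 at 28.8, Snhg12 at 15.2 and Snhg5 at 13.1 FPKM came ahead of Snhg15 at 10.2, Snhg6 at 9.73 and Snhg3 at 8.38 FPKM, the last 3 overlapping their neighbours. In pretreated H2O2 libraries Snhg15 stood at 16.8 FPKM, ahead of Snhg8 at 13.7 and Snhg3 at 12.6 FPKM, which overlapped each other. There Snhg12 at 8.37 and Snhg6 at 8.27 FPKM overlapped as well, and Snhg5 had 5.31 FPKM. The rows of Snhg5 and Snhg15 appear to have been counted over longer models than those of GENCODE M21. FPKM and counts imply 3941 to 3995 bases for Snhg5 and 2863 to 2897 bases for Snhg15, against 1730 and 1359 exonic bases in GENCODE. Per kilobase of GENCODE exons, control libraries had 15.0 CPM for Snhg15 and 11.9 CPM for Snhg5, against 11.0 CPM for Snhg8, so the order of these 3 rests on the gene model. In the other groups these 3 kept their order, but places of Snhg5 and Snhg15 beside other hosts changed. On that scale pretreated H2O2 libraries had 12.4 CPM for Snhg5, above 9.27 CPM for Snhg12 and 9.17 CPM for Snhg6. There Gas5 at 37.1 CPM and Snhg15 at 36.1 CPM stood close together. H2O2 libraries had 29.8 CPM for Snhg5 and 21.5 CPM for Snhg15, both above 16.4 CPM for Snhg12. GENCODE exons cover all 2969 bases of Snhg1 but 986 of the 5673 bases of Snhg3. Other places in the order may thus rest on the gene model too.

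**Figure D1:**
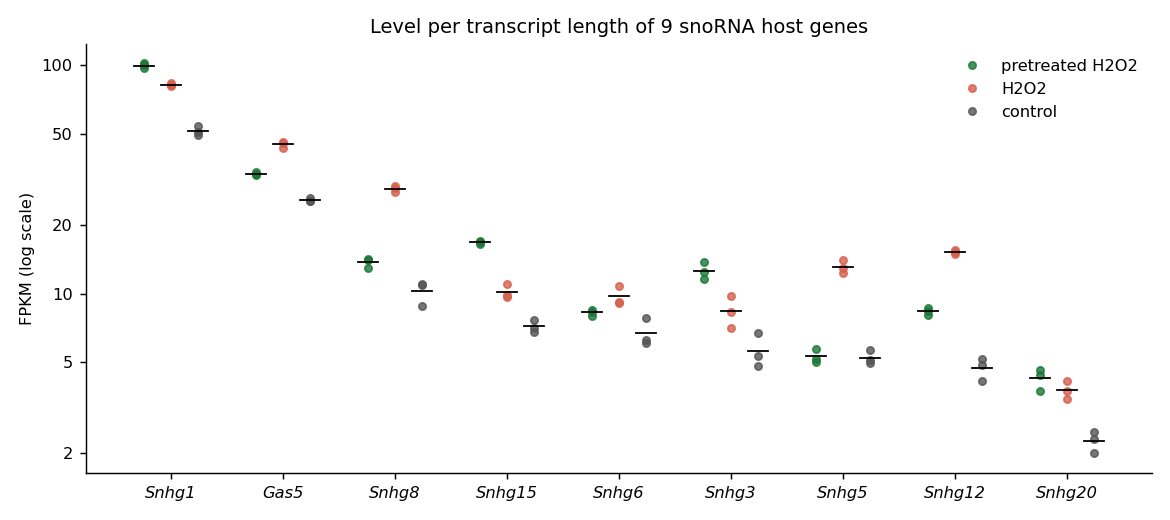
Levels in the authors' FPKM on a log axis for the 9 snoRNA host genes, ordered by their control mean. Points are the 3 libraries of each group and lines are group means. Snhg1 stands at 99.6, 82.2 and 51.5 FPKM in pretreated H2O2, H2O2 and control libraries, above Gas5 in each.

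The promoters of the hosts whose responses differ most are shown so that their start regions can be read beside the results. RefSeq promoter windows on GRCm38.p6 matched 8 of the 9 hosts, Snhg6 being the exception. Gas5 has 2 such windows, of which the one downstream is shown. Each stretch below has 150 bases, from 100 before the annotated start to 49 after it, with the start base numbered 0. It is written 5′ to 3′ on the strand of the gene. Capitals mark the cAMP response element TGACGTCA, the TATA letters TATAA and, within 10 bases of the start, a run of at least 5 pyrimidines beginning with C. Nothing is marked in Snhg1. The stretches lie at chr1:161035066-161035215 for Gas5, at chr11:6528711-6528860 for Snhg15, at chr4:132308578-132308727 for Snhg12, at chr3:123508287-123508436 for Snhg8, at chr9:88522848-88522997 for Snhg5, at chr4:132353637-132353786 for Snhg3 and at chr19:8723387-8723536 for Snhg1. Gas5, Snhg12 and Snhg1 are on the plus strand and the others on the minus strand.
Gas5: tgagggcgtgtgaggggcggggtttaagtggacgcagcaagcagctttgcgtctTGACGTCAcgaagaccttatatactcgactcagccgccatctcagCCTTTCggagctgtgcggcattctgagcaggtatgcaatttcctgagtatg
Snhg15: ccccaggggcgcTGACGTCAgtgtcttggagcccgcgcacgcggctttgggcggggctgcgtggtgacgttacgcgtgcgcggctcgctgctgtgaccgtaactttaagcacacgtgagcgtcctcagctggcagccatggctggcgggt
Snhg12: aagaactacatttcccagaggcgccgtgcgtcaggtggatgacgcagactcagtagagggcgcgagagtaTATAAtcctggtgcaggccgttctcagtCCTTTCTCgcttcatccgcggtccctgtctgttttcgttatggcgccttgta
Snhg8: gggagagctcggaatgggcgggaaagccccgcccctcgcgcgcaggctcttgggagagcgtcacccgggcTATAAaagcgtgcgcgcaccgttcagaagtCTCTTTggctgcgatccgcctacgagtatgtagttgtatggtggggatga
Snhg5: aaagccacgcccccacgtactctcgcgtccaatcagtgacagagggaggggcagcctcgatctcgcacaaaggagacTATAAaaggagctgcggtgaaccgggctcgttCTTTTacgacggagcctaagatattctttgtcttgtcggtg
Snhg3: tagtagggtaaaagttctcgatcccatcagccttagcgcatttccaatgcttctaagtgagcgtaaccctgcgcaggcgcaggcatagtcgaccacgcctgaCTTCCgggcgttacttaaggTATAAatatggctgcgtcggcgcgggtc
Snhg1: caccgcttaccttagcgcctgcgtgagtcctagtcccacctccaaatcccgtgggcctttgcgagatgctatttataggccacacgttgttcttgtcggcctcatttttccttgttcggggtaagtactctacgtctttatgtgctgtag

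TGACGTCA, searched on both strands, was in the windows of 2 of 8 hosts, at -46 to -39 in Gas5 and -88 to -81 in Snhg15, and in 1.79% of all 32851 RefSeq promoters of the same length. It reads the same on both strands. TATAA, searched on the strand of the gene, was in 4 of 8 hosts and in 17.5% of all promoters. It began at -30 in Snhg12 and Snhg8, at -23 in Snhg5 and at 22 past the start in Snhg3. The pyrimidine run was in 5 of 8 hosts (Gas5, Snhg3, Snhg5, Snhg8 and Snhg12) and in 29.0% of all promoters. TGATGNAA, the composite element bound by ATF4, was in 0 of 8 hosts and in 3.97% of all promoters, counting both strands. TGACNNNGC, the core of the antioxidant response element, was in 1 of 8 hosts, Snhg8, and in 12.4% of all promoters. CACGTG, the E-box, was in 1 of 8 hosts, Snhg15, and in 7.15% of all promoters. The shares of all promoters are by window, and counted by window the hosts gave the same numbers out of 9. Windows cover 250 bases before the start and 50 from it, and a match is no evidence of binding.

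H2O2 against control asks how the oxidant alone changed the hosts. All 9 hosts rose, and for each of them the 3 H2O2 libraries lay above the 3 control libraries. Over all tested genes, 48.7% were called in either direction and 24.6% were called higher, and 28.3% had every H2O2 library above every control library. The hosts' folds ran from 1.43 to 3.22, with a median log2 fold change of 0.75 where all tested genes had a median of 0.02. Summed over the 9 hosts, the level was 631, 616 and 631 CPM in H2O2 libraries, against 360, 351 and 344 CPM in control libraries. Gas5 and Snhg1 made up 71.0 to 77.0% of that sum in each library. The 3 hosts that rose more than 2-fold were Snhg12, Snhg8 and Snhg5, and 2.68% of all tested genes were called higher past that fold.

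Snhg12 (ENSMUSG00000086290), which carries Snora16a, Snora44, Snora61 and Snord99, had 38.6, 39.7 and 40.3 CPM in H2O2 libraries, against 13.4, 10.8 and 12.6 CPM in control libraries. The groups were far apart, and the fold was 3.22 (95% interval 2.86 to 3.62, log2 SE 0.0783, adjusted p = 2.56e-09 by edgeR's quasi-likelihood test). Snhg8 (ENSMUSG00000104960), the host of Snora24, had 26.6, 27.4 and 25.6 CPM in H2O2 libraries, against 8.08, 9.98 and 10.1 CPM in control libraries. Its fold was 2.83 (95% interval 2.45 to 3.25, adjusted p = 3.52e-08). Snhg5 (ENSMUSG00000097195), the host of the U50 snoRNAs Snord50a and Snord50b, had 50.7, 48.8 and 55.1 CPM in H2O2 libraries, against 22.0, 20.2 and 19.5 CPM in control libraries. It rose 2.50-fold (95% interval 2.25 to 2.79, adjusted p = 9.57e-09). These 3 are the hosts with an exact match to TATAA between 23 and 30 bases before the start in the stretches shown. Any part of those letters in the rises was not tested.

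Gas5 had 184, 178 and 187 CPM in H2O2 libraries, against 105, 102 and 102 CPM in control libraries. The spread within each group was small beside the gap, and the fold was 1.77 (95% interval 1.70 to 1.84, log2 SE 0.0264, adjusted p = 1.12e-10). Snhg1 had 268, 260 and 264 CPM in H2O2 libraries, against 172, 163 and 158 CPM in control libraries, a 1.61-fold rise (95% interval 1.53 to 1.69, adjusted p = 2.61e-09). Snhg20 (ENSMUSG00000086859) had 11.3, 12.6 and 10.4 CPM in H2O2 libraries, against 6.01, 7.45 and 6.92 CPM in control libraries. It rose 1.69-fold (95% interval 1.41 to 2.02, adjusted p = 0.000153).

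The smallest rises were those of Snhg3, Snhg6 and Snhg15. Snhg3 (ENSMUSG00000085241) carries the U17 snoRNAs Snora73a and Snora73b, which act in the cutting of ribosomal RNA. It had 8.85, 10.4 and 7.59 CPM in H2O2 libraries, against 5.67, 7.18 and 5.12 CPM in control libraries (1.50-fold, 95% interval 1.20 to 1.87, adjusted p = 0.0055). Its lowest H2O2 library lay just above its highest control library. Its log2 fold change was 0.58, and 0.41 once per-library trends with transcript length and GC content were removed (adjusted p = 0.0386). Most exonic bases of Snhg3 are shared with other genes in GENCODE, as given below, so its values in all comparisons are uncertain. Snhg6 (ENSMUSG00000098234), the host of Snord87, had 11.4, 11.4 and 13.5 CPM in H2O2 libraries, against 7.46, 7.73 and 9.67 CPM in control libraries (1.46-fold, 95% interval 1.22 to 1.73, adjusted p = 0.00162). Snhg15 (ENSMUSG00000085156), the host of Snora9, whose human counterpart is known as a short-lived RNA, had 31.6, 28.2 and 27.7 CPM in H2O2 libraries, against 20.1, 21.8 and 19.4 CPM in control libraries. Its log2 fold change was 0.51 (adjusted p = 1.86e-05) and 0.33 once per-library trends with transcript length and GC content were removed (adjusted p = 0.00072).

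**Figure D2:**
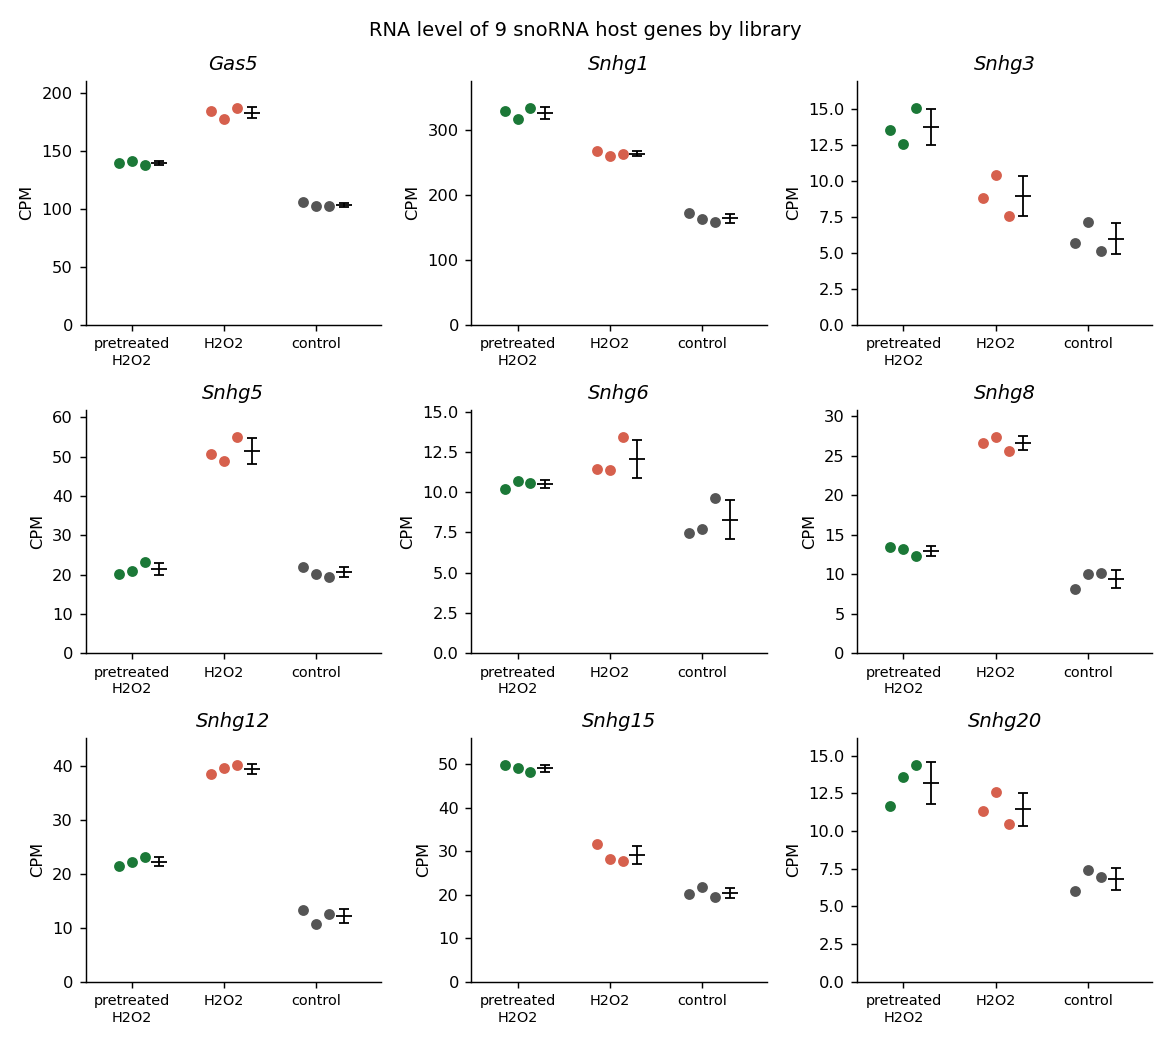
CPM of the 9 snoRNA host genes, 1 panel per gene, with the pretreated H2O2, H2O2 and control groups from left to right. Points are single libraries and the bars beside them are mean ± SD (n = 3). Gas5, Snhg5, Snhg8 and Snhg12 peak in H2O2 libraries (Snhg12 at 39.5 CPM against 22.3 CPM in pretreated H2O2), while Snhg1, Snhg3 and Snhg15 are highest in pretreated H2O2 libraries (Snhg15 at 49.1 CPM against 29.2 CPM in H2O2).

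Pretreated H2O2 against H2O2 asks what the nanoreactor changed in cells that were then given the oxidant. The hosts split. Snhg5, Snhg8, Snhg12 and Gas5 fell, Snhg1, Snhg3 and Snhg15 rose, and Snhg6 and Snhg20 did not pass the test. Of all tested genes 63.6% were called, 32.4% higher and 31.3% lower. Host libraries did not overlap for 3 hosts in the higher and 5 in the lower direction, against 36.1% and 33.6% of all tested genes (69.7% in either direction). The shares of hosts called in each direction were thus near those of all tested genes, and their median log2 fold change was -0.20 against 0.02. The sum over the hosts was 608, 600 and 618 CPM in pretreated H2O2 libraries, against 631, 616 and 631 CPM in H2O2 libraries. Most of that sum came from Gas5, which fell, and Snhg1, which rose.

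Snhg5 fell most. It had 20.3, 20.8 and 23.2 CPM in pretreated H2O2 libraries, against 50.7, 48.8 and 55.1 CPM in H2O2 libraries, a ratio of 0.416 (95% interval 0.374 to 0.463, adjusted p = 1.01e-08). Snhg8 had 13.4, 13.2 and 12.3 CPM in pretreated H2O2 libraries, against 26.6, 27.4 and 25.6 CPM in H2O2 libraries, a ratio of 0.488 (95% interval 0.425 to 0.560, adjusted p = 6.83e-07). Snhg12 had 21.4, 22.3 and 23.1 CPM in pretreated H2O2 libraries, against 38.6, 39.7 and 40.3 CPM in H2O2 libraries. Its ratio was 0.563 (95% interval 0.503 to 0.632, adjusted p = 9.29e-07). This comparison and the one above share the H2O2 libraries, so they are not independent. Gas5 fell less, to 139, 141 and 138 CPM in pretreated H2O2 libraries, against 184, 178 and 187 CPM in H2O2 libraries. Its log2 fold change was -0.39 (SE 0.0261, adjusted p = 4.84e-08), and -0.24 with the length and GC trends removed (adjusted p = 1.02e-05).

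Snhg15 rose most. It had 49.8, 49.3 and 48.2 CPM in pretreated H2O2 libraries, against 31.6, 28.2 and 27.7 CPM in H2O2 libraries (1.68-fold, 95% interval 1.53 to 1.85, adjusted p = 3.52e-07). Snhg15 and Gas5, the hosts with TGACGTCA in the stretches shown, moved in opposite directions here. Both rose in H2O2 against control and in pretreated H2O2 against control, and any part of TGACGTCA in their levels was not tested. Snhg3 had 13.6, 12.6 and 15.1 CPM in pretreated H2O2 libraries, against 8.85, 10.4 and 7.59 CPM in H2O2 libraries, a rise of 1.54-fold (95% interval 1.23 to 1.91, adjusted p = 0.00241). Snhg1 had 329, 317 and 334 CPM in pretreated H2O2 libraries, against 268, 260 and 264 CPM in H2O2 libraries, a rise of 1.24-fold (95% interval 1.18 to 1.30, adjusted p = 2.57e-06). For Snhg6, values were 10.2, 10.7 and 10.6 CPM in pretreated H2O2 libraries, against 11.4, 11.4 and 13.5 CPM in H2O2 libraries, with no overlap, a ratio of 0.869 and an interval of 0.731 to 1.03 (adjusted p = 0.143). Snhg20 had 11.6, 13.6 and 14.4 CPM in pretreated H2O2 libraries, which overlapped 11.3, 12.6 and 10.4 CPM in H2O2 libraries (1.15-fold, 95% interval 0.967 to 1.37, adjusted p = 0.144). With the filter on low counts set at 1 CPM, Snhg20 passed (log2 fold change 0.27, adjusted p = 0.0457).

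**Figure D3:**
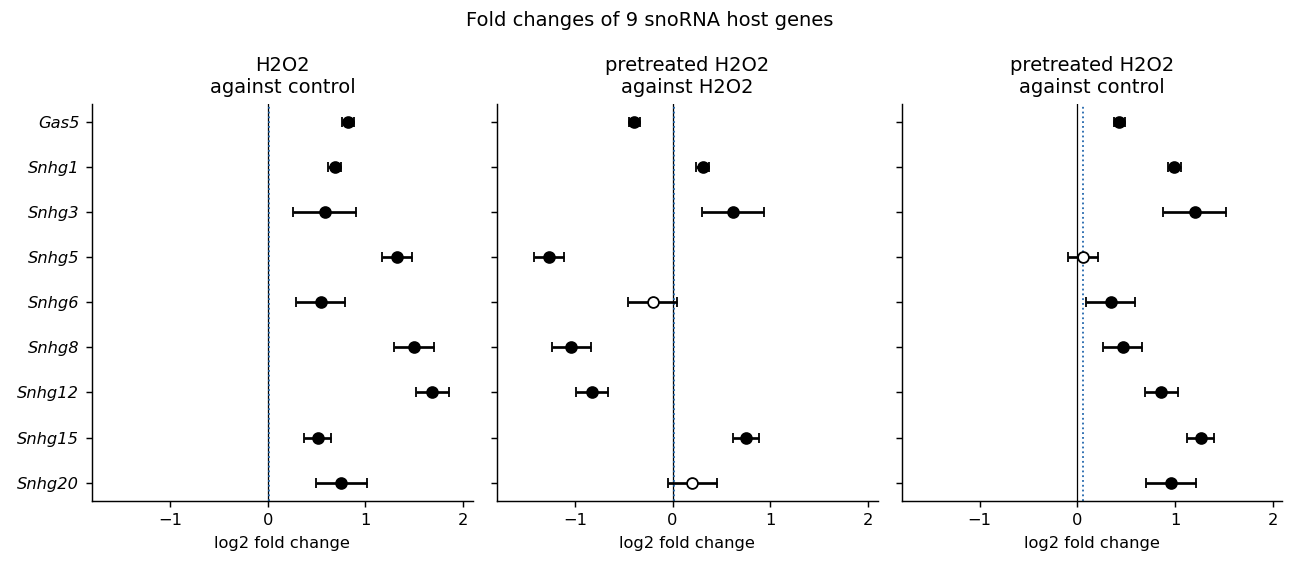
Log2 fold changes of the 9 snoRNA host genes with 95% intervals in 3 comparisons. Filled points were called at an adjusted p under 0.05 and open points were not, the solid line is 0 and the dotted line is the median of all 18092 tested genes. All 9 hosts lie above 0 in H2O2 against control, while in pretreated H2O2 against H2O2 they run from -1.27 for Snhg5 to 0.75 for Snhg15.

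Pretreated H2O2 against control sets the combined exposure against untreated cells. It shares its libraries with the comparisons above. Of the 9 hosts 8 rose, and Snhg5 did not pass the test. Of all tested genes 63.1% were called in either direction, 33.7% higher and 29.5% lower. Libraries of 8 hosts lay wholly above the control libraries, as did those of 37.3% of all tested genes, and 68.9% had no overlap in either direction. The 2 hosts called higher past a log2 fold change of 1 were Snhg3 and Snhg15, against 14.8% of all tested genes. The median log2 fold change was 0.86 over the hosts and 0.06 over all tested genes.

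Snhg15 showed the largest fold, 2.40 (95% interval 2.18 to 2.64, adjusted p = 3.14e-09), with 49.1 ± 0.817 CPM in pretreated H2O2 and 20.4 ± 1.22 CPM in control libraries (SD, n = 3 each). Snhg3 was 2.30-fold higher (95% interval 1.84 to 2.87), Snhg1 1.99-fold (1.90 to 2.09), Snhg20 1.94-fold (1.62 to 2.32), Snhg12 1.81-fold (1.61 to 2.04) and Gas5 1.35-fold (1.29 to 1.40), with adjusted p between 5.27e-11 for Snhg1 and 1.46e-05 for Snhg20. Snhg8 had 13.0 ± 0.614 CPM in pretreated H2O2 and 9.40 ± 1.14 CPM in control libraries. Its log2 fold change was 0.46 (adjusted p = 0.000831), and 0.28 with the length and GC trends removed (adjusted p = 0.0148). Snhg6 rose 1.27-fold (95% interval 1.06 to 1.51, adjusted p = 0.0211), with 10.5 ± 0.257 CPM in pretreated H2O2 and 8.29 ± 1.20 CPM in control libraries. That call rests on single libraries. The log2 fold change of 0.34 became 0.26 without control replicate 1, 0.29 without control replicate 2, 0.32 without pretreated H2O2 replicate 2 and 0.33 without pretreated H2O2 replicate 3, with adjusted p of 0.0549 to 0.0912. Snhg5 had 20.3, 20.8 and 23.2 CPM in pretreated H2O2 libraries, which overlapped 22.0, 20.2 and 19.5 CPM in control libraries, with a fold of 1.04 and a 95% interval of 0.934 to 1.16 (adjusted p = 0.507). In H2O2 libraries without pretreatment Snhg5 stood 2.50-fold above control.

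Some hosts lie against or across other genes, and reads could not be told apart by the sources used here, which do not say whether counting used the strand. Snhg1 starts 106 bp from Slc3a2, which runs the other way and encodes the heavy chain of amino acid transporters. Slc3a2 had 536, 535 and 531 CPM in pretreated H2O2 libraries, 239, 245 and 231 CPM in H2O2 libraries and 180, 183 and 181 CPM in control libraries. Slc3a2 and Snhg1 had the same order of groups and shared no exonic base. The log2 fold change of Slc3a2 was 1.16 in pretreated H2O2 against H2O2 (adjusted p = 1.21e-12), where that of Snhg1 was 0.31, and 0.39 in H2O2 against control, where that of Snhg1 was 0.69. The Slc3a2 value in H2O2 against control was 0.26 once the length and GC trends were removed. Gas5 overlaps Zbtb37, a gene of a zinc finger protein on the other strand, with 0 exonic bases shared. Zbtb37 had 18.7, 16.0 and 17.0 CPM in pretreated H2O2 libraries, 10.4, 10.7 and 9.26 CPM in H2O2 libraries and 24.4, 24.8 and 24.0 CPM in control libraries. Zbtb37 was lowest where Gas5 was highest, with a log2 fold change of -1.27 in H2O2 against control and 0.77 in pretreated H2O2 against H2O2. With the length and GC trends removed it was -0.75 in H2O2 against control, and on the log2(FPKM + 1) scale -0.56 and 0.29 in these comparisons.

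In GENCODE M21, Snhg3 shares 135 exonic bases with Rcc1, which lies on the same strand and encodes the exchange factor of Ran. Snhg3 shares 705 bases with the antisense noncoding gene Gm17300. In the deposited table Rcc1 ends at 132345747, before the start of Snhg3, so the rows of Rcc1 and Snhg3 do not overlap there. Snhg3 has 986 exonic bases in all, and Rcc1 and Gm17300 had higher CPM than Snhg3 in every group. Values of Snhg3, and its rises in the comparisons above, are uncertain to that extent. Rcc1 rose as Snhg3 did, to 134 ± 2.25 CPM in H2O2 libraries, against 108 ± 2.09 CPM in control libraries, and to 182 ± 5.81 CPM in pretreated H2O2 libraries. Gm17300 moved as Snhg12 and Snhg8 did, with 19.2 ± 0.882 CPM in pretreated H2O2, 31.9 ± 0.282 CPM in H2O2 and 14.5 ± 1.96 CPM in control libraries. Snhg6 shares 127 bases with Mcmdc2 on the other strand, whose mean was at most 0.181 CPM in any group.

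**Figure D4:**
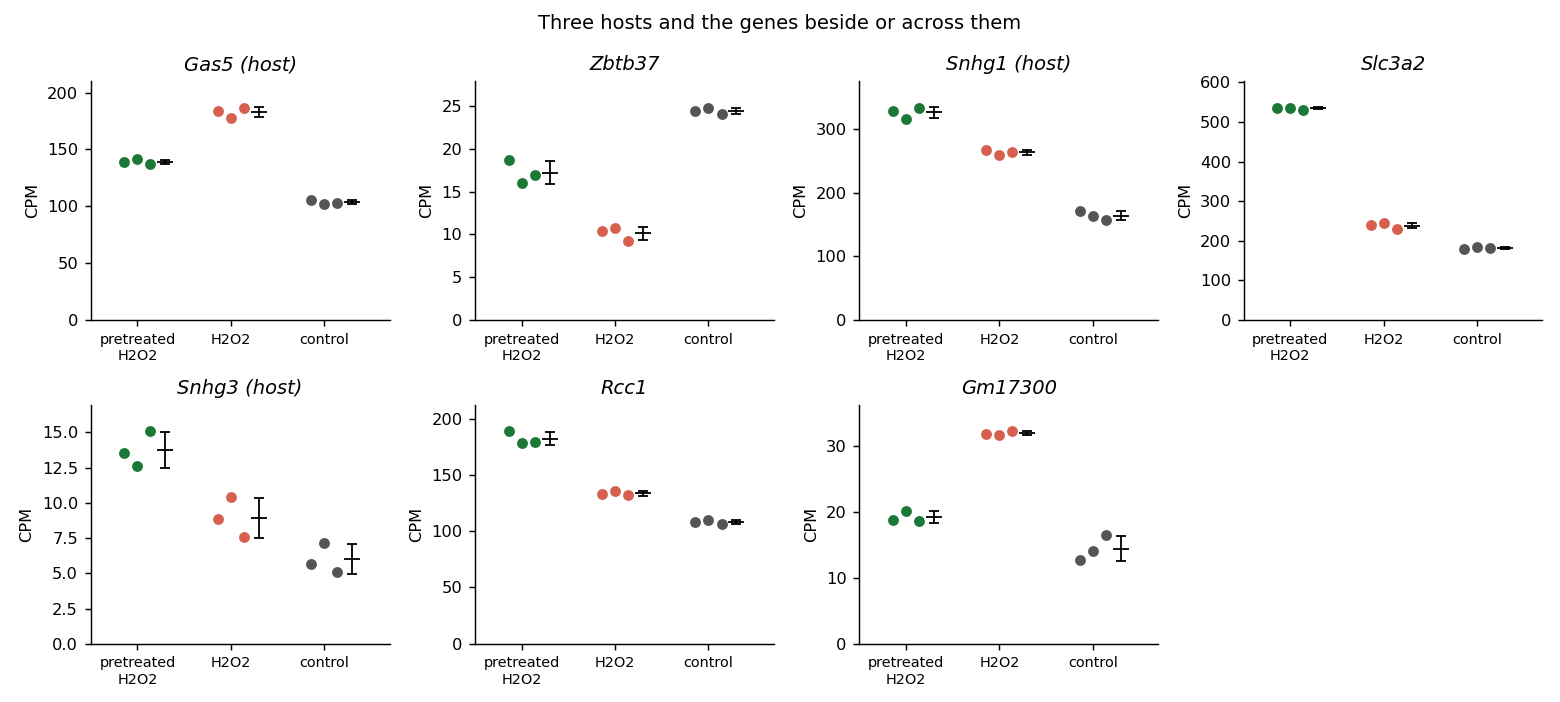
CPM of Gas5, Snhg1 and Snhg3 and of the genes that lie beside or across them, with pretreated H2O2, H2O2 and control from left to right. Points are libraries and bars are mean ± SD (n = 3). Zbtb37 is lowest in H2O2 libraries (10.1 CPM) where Gas5 is highest (183 CPM), and Slc3a2 reaches 534 CPM in pretreated H2O2 libraries.

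GENCODE annotates 31 snoRNA genes inside the 9 hosts on the same strand, 10 in Gas5, 8 in Snhg1, 5 in Snhg12, 2 each in Snhg3 and Snhg5 and 1 in each of the others. Snord80 in Gas5 and Snora16a in Snhg12 each stand on 2 entries at nearly the same bases. The snoRNA genes' own rows in these poly(A)-selected libraries were nearly empty. In 28 of the 31 no library had more than 5 counts, and in 22 every library had exactly 1. All 28 lie within an exon of some annotated host transcript, intron-retaining ones included, and for Gas5 the annotated exons cover 3760 of its 4118 bases. The 3 others, Snora73a and Snora73b in Snhg3 and Snord87 in Snhg6, lie outside the annotated exons. Snord87 had 37, 31 and 34 counts in pretreated H2O2 libraries, 12, 21 and 17 counts in H2O2 libraries and 17, 16 and 26 counts in control libraries. Whether the output of mature snoRNAs changed was not measured.

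Among 12 other noncoding snoRNA host rows, of which 11 were tested, 7 rose and 1 fell in H2O2 against control (median log2 fold change 0.49). In pretreated H2O2 against H2O2, 4 rose and 3 fell (median -0.09), and in pretreated H2O2 against control 8 rose and 1 fell (median 0.81). Dancr, the host of an H/ACA snoRNA, had 10.4, 11.4 and 10.4 CPM in pretreated H2O2, 16.2, 15.8 and 17.0 CPM in H2O2 and 3.89, 4.18 and 2.56 CPM in control libraries. That is the order of groups of Snhg12, and Dancr rose 4.63-fold in H2O2 against control (adjusted p = 8.49e-08). Snhg17 had the order of Snhg1, with 77.1 ± 3.07 CPM in pretreated H2O2, 52.1 ± 0.897 CPM in H2O2 and 44.0 ± 1.10 CPM in control libraries. Snhg14, the very long host of the imprinted Prader-Willi snoRNA clusters, went the other way, with 3.08 ± 0.252 CPM in H2O2 and 5.10 ± 0.207 CPM in control libraries. Its log2 fold change of -0.73 turned to 0.21 with the length and GC trends removed (adjusted p = 0.204). The symbol Snhg4 stands on 2 overlapping rows, so its values are uncertain and are not described. Both rows are nevertheless in the counts and medians above.

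Other snoRNAs lie in protein-coding genes, most of them of the translation machinery. Of 40 such hosts, 33 rose and 5 fell in H2O2 against control (median log2 fold change 0.59), 8 rose and 28 fell in pretreated H2O2 against H2O2 (median -0.26), and 35 rose and 3 fell in pretreated H2O2 against control (median 0.35). In the last of these, 29 rose and 6 fell once the length and GC trends were removed (median 0.19). The 22 of them that encode ribosomal proteins all rose in H2O2 against control (median 0.67), and 20 fell in pretreated H2O2 against H2O2 (median -0.31). The 57 tested ribosomal protein genes that were in no host list gave 56 higher (median 0.66) in the first comparison and 55 lower (median -0.29) in the second. The 18 hosts that encode other proteins were mixed, with 11 higher and 5 lower (median 0.29) in the first and 8 higher and 8 lower (median -0.03) in the second. All 79 tested cytosolic ribosomal protein genes together had medians of 0.66, -0.30 and 0.37 in H2O2 against control, pretreated H2O2 against H2O2 and pretreated H2O2 against control, where Gas5 had 0.82, -0.39 and 0.43. Once the length and GC trends were removed, those ribosomal protein medians were 0.47, -0.37 and 0.08. In pretreated H2O2 against control the list then gave 41 higher and 7 lower in place of 78 and 0, while Gas5 stood at 0.57.

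By the smallest root mean square difference in centred log2 CPM over the 9 libraries, among 9267 genes of at least 10 CPM, the genes most like Gas5 included Rps12-ps3, Rps12-ps4, Gm44510 and Pmm1, with differences of 0.0407 to 0.0497. Pmm1, an enzyme of mannose metabolism, had 63.0 ± 0.210 CPM in pretreated H2O2, 79.2 ± 1.67 CPM in H2O2 and 47.8 ± 0.835 CPM in control libraries. Pseudogene rows such as Rps12-ps3 can share reads with Rps12. The genes most like the mean of the 9 hosts were Rplp2, Zfas1, Cstb, Rps16 and 2410006H16Rik, at 0.0711 to 0.0980. Zfas1 is itself the host of the Snord12 snoRNAs and had 32.5 ± 0.657 CPM in pretreated H2O2, 34.5 ± 1.46 CPM in H2O2 and 18.4 ± 1.66 CPM in control libraries.

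**Figure D5:**
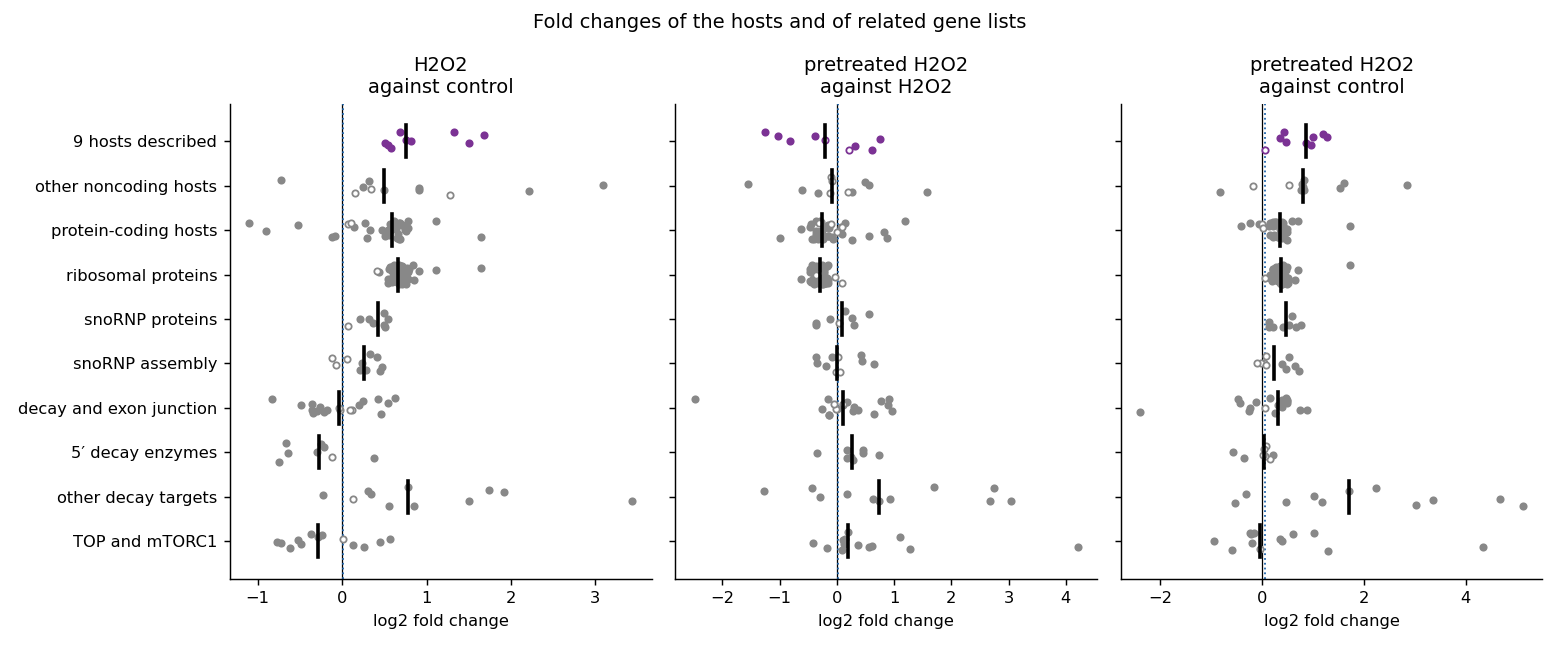
Log2 fold changes of the 9 hosts (purple) and of genes in related lists (grey), in 3 comparisons. Each point is a tested gene, filled if called, black bars are list medians, the solid line is 0 and the dotted line is the median of all tested genes. In H2O2 against control the medians are 0.75 for the 9 hosts, 0.66 for ribosomal proteins and -0.28 for the 5′ decay enzymes.

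Genes of the decay pathway that is known to act on such hosts did not move one way, and decay itself was not measured. Of 19 nonsense-mediated decay and exon junction factors, 6 rose and 9 fell in H2O2 against control (median log2 fold change -0.03), and 10 rose and 5 fell in pretreated H2O2 against H2O2 (median 0.11). Smg1, the kinase that phosphorylates Upf1, had 91.6 ± 7.28 CPM in H2O2 and 163 ± 1.81 CPM in control libraries (adjusted p = 2.68e-08). Magoh, a core exon junction protein, had 80.6 ± 1.19 CPM in H2O2 and 52.2 ± 3.31 CPM in control libraries. Pnrc2, which links Upf1 to decapping, had 11.8 ± 0.868 CPM in pretreated H2O2 and 66.1 ± 2.60 CPM in H2O2 libraries, a log2 fold change of -2.49 (adjusted p = 3.58e-12). Of 8 general 5′ decay enzymes, 6 fell and 1 rose in H2O2 against control (median -0.28), and 7 rose and 1 fell in pretreated H2O2 against H2O2 (median 0.27). Xrn1, the 5′ exonuclease that degrades decapped RNA, had 48.0 ± 1.21 CPM in H2O2 and 80.8 ± 1.36 CPM in control libraries. With the length and GC trends removed, the log2 fold changes in H2O2 against control were smaller, -0.29 in place of -0.83 for Smg1 and -0.14 in place of -0.75 for Xrn1, and the median of the 5′ decay enzymes was -0.15.

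Transcripts reported elsewhere as targets of the same decay, mostly stress genes, rose in H2O2 against control in 9 of 11 with 1 lower (median 0.78), and in pretreated H2O2 against H2O2 in 8 with 3 lower (median 0.74). The median in H2O2 against control was 0.52, with 8 higher and 0 lower, once the length and GC trends were removed. Trib3, a stress pseudokinase, had 55.6 ± 1.31 CPM in pretreated H2O2 and 6.73 ± 0.371 CPM in H2O2 libraries. Cdkn1a, the cell cycle inhibitor p21, had 612 ± 6.44 CPM in pretreated H2O2, 90.7 ± 4.87 CPM in H2O2 and 24.1 ± 1.63 CPM in control libraries, the order of Snhg1, Snhg3 and Snhg15. Gadd45b had 40.4 ± 1.73 CPM in pretreated H2O2, 97.5 ± 1.26 CPM in H2O2 and 29.2 ± 0.645 CPM in control libraries, the order of Gas5 and Snhg12.

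Among transcripts for proteins that bind or assemble snoRNAs, most but not all rose in H2O2 against control. Of 8 box C/D and H/ACA proteins 7 rose and 0 fell, Dkc1 at a log2 fold change of 0.072 (adjusted p = 0.0678) not passing the test (median 0.43), and of 10 assembly factors 7 rose, 0 fell and 3 did not pass (median 0.26). With the length and GC trends removed the medians were 0.28 for the proteins and 0.19 for the factors, of which 6 then rose and 2 fell. In pretreated H2O2 against H2O2 the counts were 4 higher and 3 lower (median 0.08) for the proteins and 3 higher and 4 lower (median 0.00) for the factors. Nop56 and Nop58, paired core proteins of box C/D particles, differed there. Nop56, itself a snoRNA host, had 384 ± 8.20 CPM in pretreated H2O2, 496 ± 9.91 CPM in H2O2 and 349 ± 6.22 CPM in control libraries, the order of Gas5. Nop58 had 358 ± 15.4 CPM in pretreated H2O2, 243 ± 5.26 CPM in H2O2 and 210 ± 1.39 CPM in control libraries, the order of Snhg1.

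Regulators of pyrimidine-run mRNAs and mTORC1 gave 4 higher and 8 lower of 13 in H2O2 against control (median -0.28), and 11 higher and 2 lower in pretreated H2O2 against H2O2 (median 0.19). These medians were -0.02 and 0.31 with the length and GC trends removed. Larp1, which binds the pyrimidine run, had 197 ± 1.86 CPM in H2O2 and 337 ± 4.17 CPM in control libraries (adjusted p = 2.17e-11). Sesn2, a stress-induced inhibitor of mTORC1, had 400 ± 4.91 CPM in pretreated H2O2, 21.6 ± 0.929 CPM in H2O2 and 19.7 ± 1.30 CPM in control libraries. Its log2 fold change was 4.21 in pretreated H2O2 against H2O2 (adjusted p = 2.98e-15), where 4 hosts fell and 3 rose.

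Other transcripts named for growth arrest gave mixed results. Of 8 growth arrest specific genes, 2 rose and 3 fell in H2O2 against control (median -0.15), and 2 rose and 4 fell in pretreated H2O2 against control (median -0.64). In H2O2 against control, 0 rose and 3 fell once the length and GC trends were removed (median -0.093). Gas1, a membrane protein that blocks entry into S phase, had 4.12 ± 0.200 CPM in pretreated H2O2, 64.3 ± 2.98 CPM in H2O2 and 152 ± 0.580 CPM in control libraries. Of 7 tested genes of the glucocorticoid receptor and its targets, 2 rose and 5 fell in H2O2 against control (median -0.46), and 2 rose and 5 fell in pretreated H2O2 against control (median -0.40). These medians were -0.22 and -0.33 once the length and GC trends were removed. The receptor gene Nr3c1 had 70.8 ± 0.788 CPM in pretreated H2O2, 87.2 ± 1.87 CPM in H2O2 and 120 ± 5.45 CPM in control libraries. Klf9, a target that the receptor induces, had 25.7 ± 1.48 CPM in pretreated H2O2, 9.23 ± 0.453 CPM in H2O2 and 16.7 ± 0.542 CPM in control libraries. Other targets had another order of groups. Tsc22d3, the leucine zipper protein GILZ, had 9.11 ± 1.12 CPM in pretreated H2O2, 14.0 ± 0.335 CPM in H2O2 and 7.42 ± 0.787 CPM in control libraries, and rose in H2O2 against control (log2 fold change 0.91, adjusted p = 1.93e-05). Dusp1, a phosphatase of MAP kinases, had 28.7 ± 1.10 CPM in pretreated H2O2, 49.2 ± 1.99 CPM in H2O2 and 40.6 ± 0.679 CPM in control libraries. Its log2 fold change of 0.28 in H2O2 against control (adjusted p = 0.000302) was 0.11 once the length and GC trends were removed (adjusted p = 0.092). What Gas5 does to the receptor's targets was not tested.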

How the data were processed

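RNA from 9 libraries of HEI-OC1 cells was poly(A) selected and sequenced as paired 150-base reads from strand-marking libraries, per the labels' protocols. The authors deposited estimated counts per gene, here all whole numbers, and FPKM per gene, per the file headers. For the aligner and the counter, names were not given in the sources used here. The submitters' processing notes name hg38, but identifiers and coordinates are mouse GRCm38 (GENCODE M21). Tests were planned for raw counts and run on these estimated counts. Libraries held 55395418 to 67215208 counts. Earlier work found that 1 fragment may stand for about 4 counts, so counts divided by 4 were an alternative.

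Counts were scaled by TMM and tested over 18092 genes by edgeR 4.0.16 (R 4.3.3) quasi-likelihood tests on all 9 libraries, with genes filtered by filterByExpr. A call is a Benjamini-Hochberg adjusted p under 0.05, with no minimum fold. The fit was tested on simulated data. Alternatives used DESeq2 1.42.0, limma 3.58.1 on log2(FPKM + 0.1) or log2(FPKM + 1), other scalings and filters, length and GC offsets, a replicate block and single libraries left out. Tables used Python 3.11.15 and pandas 2.3.3. Members and gene lists were chosen with earlier results of these data known. Beyond the 9 hosts, genes are named by rule: neighbours, the 5 nearest profiles, and the largest and smallest changes of each list, at most 4 per comparison. Some genes that this rule names are not reported here.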

Additional observations from a re-analysis of the deposited data

How the results depend on the processing

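Under 21 alternatives to the reported analysis, the count of hosts called stayed at 9 in H2O2 against control, at 7 to 8 in pretreated H2O2 against H2O2 and at 7 to 8 in pretreated H2O2 against control. Leaving out 1 library at a time gave 9, 7 and 7 to 8 hosts in these comparisons, and 8129 to 8316, 10908 to 11256 and 10761 to 11109 genes called in all. Of the hosts' fold changes under single alternatives, 480 kept their direction and side of the threshold, 4 lost their call (all Snhg6 in pretreated H2O2 against control), 1 gained it (Snhg20) and 1 turned. That one was Snhg5 in pretreated H2O2 against control, which ran from -0.0037 (without pretreated H2O2 replicate 3) to 0.10 as single libraries were left out. With the length and GC offsets Snhg14 turned to 0.21 in H2O2 against control and Zbtb37 to 0.082 in pretreated H2O2 against control, and the cause was not tested. The gene lists were recomputed with these offsets after seeing the data. Per kilobase of GENCODE exons, control levels were 27.5 CPM for Gas5, 55.2 for Snhg1, 11.9 for Snhg5 and 15.0 for Snhg15. Without a filter on low counts the median log2 fold change of all genes was 0.18 in both comparisons with pretreated libraries.

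With a replicate block, 8603 genes were called in H2O2 against control, 11322 in pretreated H2O2 against H2O2 and 11181 in pretreated H2O2 against control, and the hosts called numbered 9, 7 and 8. The replicate numbers do not pair the libraries, since same-numbered libraries' deviations correlated at -0.0205 to 0.0492. Lowest counts of a host were 338, for Snhg3 in a control library, and limit its precision.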
